A study of Mus musculus with 32 samples.

Results

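The genes described here are 10 members of the pathway that loads peptides onto MHC class I molecules: H2-K1, H2-D1, B2m, Tap1, Tap2, Tapbp, Psmb8, Psmb9, Psmb10 and Nlrc5. They were chosen by name, as the array probes whose gene name was any of these symbols, and no measured value entered that choice. The array carried 17 such probes among its 56605 non-control probes, and 16 of them passed the filter on dim signal, as did 35777 probes in all. With the brightest probe standing for each gene, the 10 members were 10 of the 23644 genes tested, and no member was lost to the filter. RNA came from whole livers of male F1 C57BL/6J mice aged 21 weeks, measured on single-colour Agilent arrays, 8 mice per group. WD_E171 mice ate a Western diet with E171, the food-grade titanium dioxide additive, and WD_CONT mice ate that diet without it. ND_E171 mice ate a normal diet with E171, and ND_CONT mice ate a normal diet alone. The target dose of E171 was 10 mg/kg body weight per day. Mothers began their treatment at 8 weeks of age, 40 days before mating, and each F1 mouse stayed on the treatment of its mother. The adult diet began at 5 weeks of age and lasted 16 weeks. The labels say Western diet where the protocol says high fat, and the stated question was whether the diet aggravates the response to the additive. Litters are not given, so mice of a group may be littermates, and p-values measure the spread between these mice.

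MHC class I molecules show short peptides from inside the cell to CD8 T cells, and their absence is sensed by natural killer cells. Each consists of a polymorphic heavy chain (H2-K1 and H2-D1 in this strain) and the shared light chain B2m. The peptides are cut by the proteasome, in which the interferon-inducible subunits Psmb8, Psmb9 and Psmb10 replace Psmb5, Psmb6 and Psmb7, and they are pumped into the endoplasmic reticulum by the transporter Tap1-Tap2. Tapbp (tapasin) holds the empty heavy chain at that transporter. Nlrc5 is the transcriptional activator of this gene set, as Ciita is for MHC class II, and interferon-gamma is its classical inducer. Hepatocytes display class I at a low level compared with leukocytes, whereas class II is largely restricted to antigen-presenting cells.

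The members lie in a few places of the genome (GRCm38.p6, RefSeq). The Psmb9 gene spans chr17:34182030-34187330, Tap1 chr17:34187556-34197225, Psmb8 chr17:34198195-34201454 and Tap2 chr17:34204479-34216321, so these 4 genes are neighbours in the MHC. Tapbp (chr17:33919478-33929290), H2-K1 (chr17:33996012-34000619) and H2-D1 (chr17:35263094-35267497) lie on the same chromosome. B2m is at chr2:122147687-122153082, Nlrc5 at chr8:94434335-94527272 and Psmb10 at chr8:105935728-105938392. Promoters are shown because the members moved together from mouse to mouse, as described further on. The H2-D1 and B2m sequences are the 250 bases before the gene start, from chr17:35262844-35263093 and chr2:122147437-122147686, plus strand. Psmb9 runs to the left and Tap1 to the right from a shared stretch of 225 bases, chr17:34187331-34187555, printed on the plus strand, so both starts flank it. Capitals mark every match, on either strand, to GGG and CCC with any 5 bases between them (the letters of an NF-kappa-B-like site), to GAA or GAAA followed after any 2 bases by GAAA (letters found in interferon-stimulated elements), TGACG and CCAAT (letters of the X2 and Y boxes of MHC promoters).
H2-D1: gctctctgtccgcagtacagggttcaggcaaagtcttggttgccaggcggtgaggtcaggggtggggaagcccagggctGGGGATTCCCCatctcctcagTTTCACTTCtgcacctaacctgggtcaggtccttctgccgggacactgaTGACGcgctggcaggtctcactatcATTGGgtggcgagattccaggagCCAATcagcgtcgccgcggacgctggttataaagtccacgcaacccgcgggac
B2m: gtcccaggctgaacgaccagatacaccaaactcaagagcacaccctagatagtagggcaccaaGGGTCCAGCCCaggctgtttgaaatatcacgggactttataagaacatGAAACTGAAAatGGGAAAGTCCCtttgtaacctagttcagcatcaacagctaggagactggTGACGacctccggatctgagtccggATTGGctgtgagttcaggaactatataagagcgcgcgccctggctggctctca
Psmb9 and Tap1: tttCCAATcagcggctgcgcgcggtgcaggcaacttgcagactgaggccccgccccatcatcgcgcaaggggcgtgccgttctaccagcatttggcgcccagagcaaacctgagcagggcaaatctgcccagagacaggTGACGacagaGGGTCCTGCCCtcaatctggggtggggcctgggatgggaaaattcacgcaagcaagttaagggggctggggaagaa
The RefSeq promoter table (250 bases before to 50 after each start) held 8 of the 10 members; Tap2 and Nlrc5 are named only. GGG and CCC at that spacing, a search added after these sequences were seen, was found in 5 of those 8 promoters and in 12.1% of 27025 promoters in the table. TGACG was found in 5 of 8, against 17.9% of all promoters, and CCAAT in 6 of 8, against 34.5%. Psmb9 and Tap1 each count in these numbers, although they share the printed stretch and the same matches, so the 8 promoters are not independent. The form that begins with GAA was found in H2-K1 and H2-D1 (6.34% of all promoters), that with GAAA in B2m (3.04%) and TTCNNNGAA, letters of interferon-gamma activated sites, in Psmb8 (7.18%). A match of letters is a description of these windows. The probes of 2 neighbouring subunits are shown as what was hybridised, since Psmb9 was called for diet in the E171 mice and Psmb8 was not: the Psmb9 probe (chr17:34319174-34319233, minus strand) and the Psmb8 probe (chr17:34337771-34337830, plus strand), in mm9 coordinates from the array files, each 60 bases with no part in capitals.
Psmb9 probe: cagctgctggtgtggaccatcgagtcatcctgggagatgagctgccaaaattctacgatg
Psmb8 probe: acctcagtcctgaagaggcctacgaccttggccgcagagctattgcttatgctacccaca

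The 32 arrays sat on 4 slides, each holding 2 mice of every group. Between 32163 and 37261 probes per array were well above background and no spot was saturated. Levels are log2 of the processed signal relative to the array's own 75th percentile, so 1 unit is a doubling, and levels are compared between mice for a probe and never between probes. The liver markers were in place: 7 of 8 hepatocyte markers were measured, and their summed level had medians of 3999 in WD_E171 and 4117 in WD_CONT, against 5707 in ND_E171 and 5333 in ND_CONT, in multiples of the array's 75th percentile. All 7 fell with the Western diet, while 7 of 10 Kupffer cell markers and 4 of 5 lipid-associated macrophage markers were called higher, with or without E171 (1 of the 4, Gpnmb, was dim on the normal diet). In whole liver, fewer cells of a type and less RNA per cell cannot be told apart.

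A pair of mice stood apart for these genes. WD_CONT replicate 6 was the highest of its group for 10 of the 10 members, by 0.26 to 1.22 log2 units above the group mean. ND_E171 replicate 7 was the lowest of its group for 6 of 10 and lay below the group mean for all 10, by 0.10 to 1.08. Averaged over the members, their deviations were 0.61 and -0.40. Other mice came close. WD_E171 replicate 2 was highest for 8 members (mean deviation 0.34), WD_E171 replicate 7 lowest for 6 (-0.29) and ND_CONT replicate 2 lowest for 7 (-0.28). No alternative left out any of these other mice. Results that rest on either mouse are given with and without it, and those exclusions were chosen after the data had been seen.

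The classical heavy and light chains were bright in every mouse, and under the 75th percentile scaling their group medians lay close together; under the other scalings described below all 3 were higher on the Western diet. H2-K1 had a lowest, median and highest level of 8.62, 8.75 and 8.96 in WD_E171, 8.52, 8.67 and 9.22 in WD_CONT, 8.51, 8.66 and 8.76 in ND_E171, and 8.52, 8.73 and 8.99 in ND_CONT. H2-D1, the other heavy chain, ran 6.39, 6.77 and 7.03 in WD_E171, 6.6, 6.78 and 7.18 in WD_CONT, 6.39, 6.5 and 6.72 in ND_E171, and 6.38, 6.59 and 7.0 in ND_CONT. B2m, which every class I heavy chain needs to fold and reach the surface, ran 8.14, 8.35 and 8.56 in WD_E171, 8.11, 8.36 and 8.81 in WD_CONT, 8.09, 8.25 and 8.41 in ND_E171, and 8.18, 8.37 and 8.77 in ND_CONT. The groups overlapped for all 3 chains. H2-D1 sat highest on the Western diet, where 7 of 8 WD_E171 mice exceeded the ND_E171 median and 8 of 8 WD_CONT mice exceeded the ND_CONT median. The WD_CONT maximum of each chain was replicate 6.

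The transporter subunits differed in their spread. Tap1 ran 1.55, 2.14 and 2.83 in WD_E171, 1.70, 1.86 and 2.81 in WD_CONT, 0.60, 1.77 and 2.15 in ND_E171, and 1.62, 1.87 and 2.15 in ND_CONT. Its partner Tap2 ran 3.53, 3.64 and 3.96 in WD_E171, 3.37, 3.49 and 3.92 in WD_CONT, 3.35, 3.6 and 3.78 in ND_E171, and 3.38, 3.53 and 3.86 in ND_CONT. Tapbp ran 4.81, 4.88 and 5.06 in WD_E171, 4.78, 4.92 and 5.19 in WD_CONT, 4.60, 4.78 and 4.98 in ND_E171, and 4.55, 4.82 and 4.97 in ND_CONT. All groups overlapped again. In Tap1, 4 WD_E171 mice were above every ND_E171 mouse, and the low end of ND_E171 was replicate 7 alone, since the next mouse stood at 1.66. In Tapbp, 8 of 8 WD_E171 mice were above the ND_E171 median and 7 of 8 WD_CONT mice above the ND_CONT median, by small steps. A second, less bright Tapbp probe went the other way, with medians of -0.80 in WD_E171 and -0.76 in WD_CONT, against -0.67 in ND_E171 and -0.58 in ND_CONT.

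Among the immunoproteasome subunits, Psmb9 was higher on the Western diet in the E171 mice, while Psmb8 and Psmb10 were not. Psmb9 ran 3.15, 3.64 and 4.28 in WD_E171, 2.88, 3.35 and 4.35 in WD_CONT, 2.23, 3.23 and 3.64 in ND_E171, and 2.76, 3.39 and 3.65 in ND_CONT. Psmb8 ran 2.43, 2.84 and 3.27 in WD_E171, 2.26, 2.69 and 3.22 in WD_CONT, 2.36, 2.82 and 3.21 in ND_E171, and 2.47, 2.90 and 3.19 in ND_CONT. Psmb10 ran 4.55, 4.88 and 5.22 in WD_E171, 4.68, 4.78 and 5.52 in WD_CONT, 4.84, 5.0 and 5.37 in ND_E171, and 4.85, 4.98 and 5.18 in ND_CONT. Their groups overlapped too. For Psmb10, 4 of 8 WD_E171 mice were below every ND_E171 mouse and 5 of 8 WD_CONT mice below every ND_CONT mouse, although WD_CONT replicate 6 was the highest of all 32. Nlrc5 ran 1.40, 1.56 and 1.99 in WD_E171, 0.94, 1.33 and 2.63 in WD_CONT, 0.63, 1.46 and 1.95 in ND_E171, and 0.96, 1.52 and 1.98 in ND_CONT. Its SD was 0.21 in WD_E171, 0.53 in WD_CONT, 0.39 in ND_E171 and 0.32 in ND_CONT (n = 8 each). The WD_CONT value includes replicate 6 at 2.63, where the next mouse had 1.48. The ND_E171 value includes replicate 7, the lowest at 0.63. These SDs were not recomputed without those mice, so they show no difference in spread between groups.

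**Figure D1:**
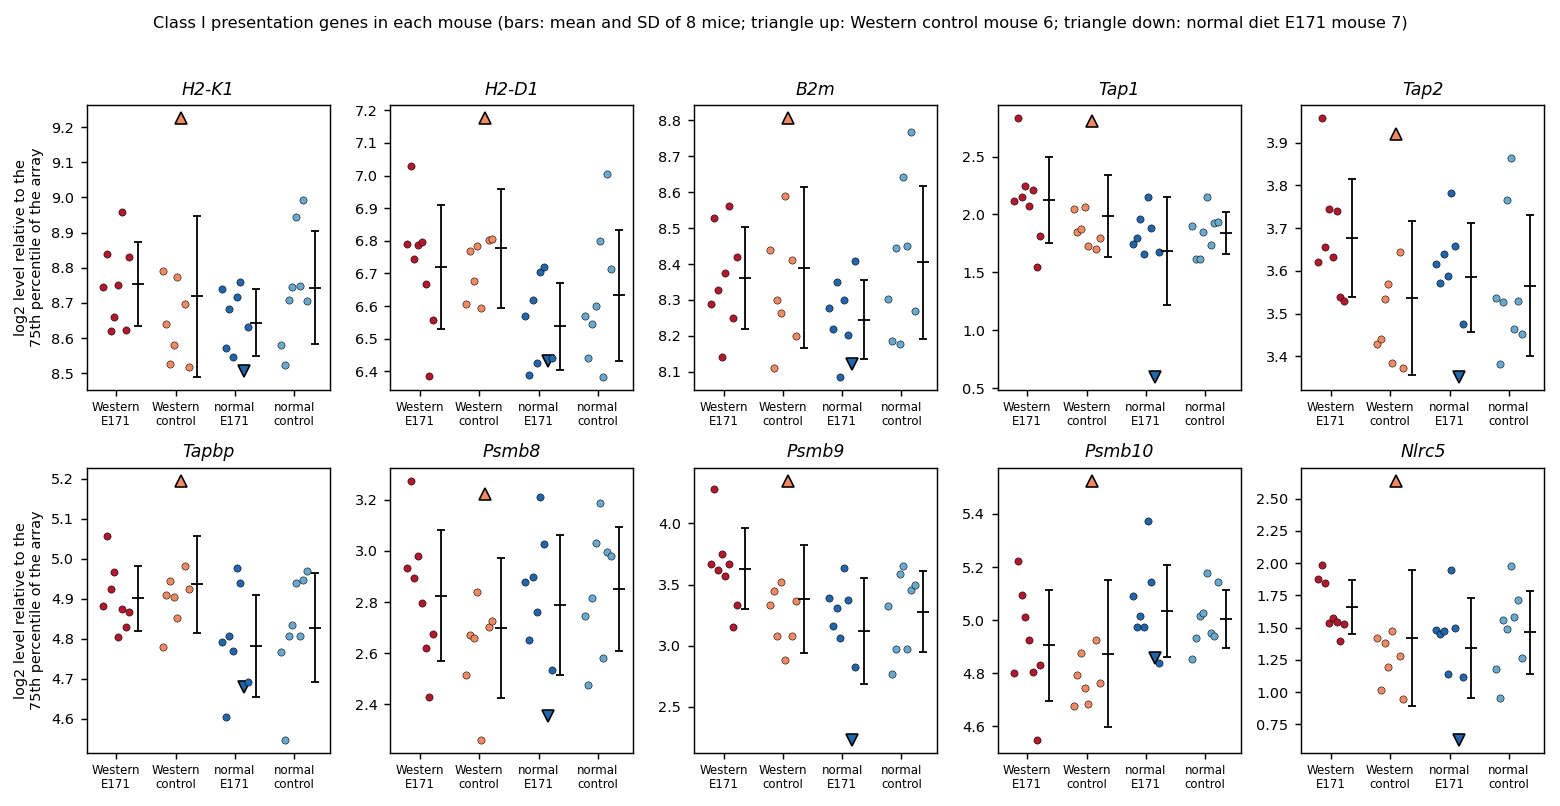
Level of each class I presentation gene in every mouse, as log2 relative to the array's 75th percentile, in a panel per gene with its own axis, groups of 8 mice from left to right as Western E171, Western control, normal diet E171 and normal diet control, with bars for mean and SD. All groups overlap in all panels, and the Western control mouse 6 (upward triangle) tops its group in 10 of 10 genes.

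Under the 75th percentile scaling, a smaller share of these genes than of all genes was called for the Western diet; the other scalings called more of them, as given below. In the E171 mice (WD_E171 minus ND_E171), 2 of the 10 members rose and none fell, where 53.2% of the 23644 genes passed (22.2% higher and 31% lower; limma, Benjamini-Hochberg adjusted p under 0.05 over all genes). The median difference was 0.12 log2 units over the members and -0.10 over all genes. The 2 risers were Psmb9, up by 0.51 ± 0.19 (SE, n = 8 per group; 95% interval 0.12 to 0.89, 1.42-fold, limma adjusted p = 0.0244), and Tap1, up by 0.44 ± 0.17 (0.09 to 0.79, 1.36-fold, adjusted p = 0.0336). These 2 genes start from the shared promoter printed above. Within the 4 slides the Psmb9 difference ran from 0.08 to 1.04 and the Tap1 difference from 0.05 to 1.04, positive on 4 of 4 slides for each.

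Both calls rest partly on ND_E171 replicate 7. Without that mouse the difference was 0.38 for Psmb9 (limma adjusted p = 0.0713) and 0.29 for Tap1 (adjusted p = 0.101), no member passed, and 51.5% of all genes did. With WD_CONT replicate 6 left out as well Psmb9 passed (0.38, adjusted p = 0.0336) and Tap1 did not (adjusted p = 0.0501). On the Western side, WD_E171 replicate 2 lay above its group mean by 0.65 for Psmb9 and 0.70 for Tap1. The calls were not rerun without that mouse. The second probe of each gene moved less: by 0.24 for Tap1 (adjusted p = 0.22) and by 0.22 for Psmb9 (adjusted p = 0.46). The second Psmb9 probe was dim, well above background in 7 of 8 WD_E171 and 8 of 8 ND_E171 mice.

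The other 8 members did not pass in the E171 mice. Nlrc5 differed by 0.32 (95% interval -0.06 to 0.69, adjusted p = 0.143) and H2-D1 by 0.18 (-0.00 to 0.37, adjusted p = 0.0865). Tapbp differed by 0.12 (adjusted p = 0.112), B2m by 0.12 (adjusted p = 0.279), H2-K1 by 0.11 (adjusted p = 0.255) and Tap2 by 0.09 (adjusted p = 0.329). Psmb8, the neighbour of Tap1 on its other side, differed by 0.04 (adjusted p = 0.824), and Psmb10 by -0.13 (adjusted p = 0.276). The second probes of Nlrc5, Tapbp and H2-K1 had the opposite sign, at -0.14, -0.18 and -0.03, and that of B2m was at 0.02. None of these probes passed when every probe was tested on its own, so a direction for these genes rests on the probe used. The second H2-K1 probe shared a run of 20 bases with probes of H2-L and H2-T23, so it may not read H2-K1 alone. The second Nlrc5 probe was much less bright, with medians of -3.82 in WD_E171 and -3.79 in ND_E171.

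Without E171 (WD_CONT minus ND_CONT), 0 of the 10 members passed, where 47.3% of all genes did (18.5% higher and 28.8% lower; limma), and 0 members were at an unadjusted p under 0.05. The member median was -0.02 and the median of all genes -0.10. The largest differences were Psmb8 at -0.15 (95% interval -0.41 to 0.11, adjusted p = 0.339), H2-D1 at 0.14 (-0.04 to 0.33, adjusted p = 0.188) and Tap1 at 0.14 (-0.21 to 0.50, adjusted p = 0.512). Psmb9, called in the E171 mice, was at 0.10 here (-0.28 to 0.49, adjusted p = 0.67). Nlrc5 was at -0.05 (-0.42 to 0.33), B2m at -0.02 (-0.20 to 0.17) and H2-K1 at -0.02 (-0.19 to 0.14). Psmb10 was at -0.13 (adjusted p = 0.285), and without WD_CONT replicate 6 it was at -0.22 and passed as lower (adjusted p = 0.0245, where 48.4% of genes passed). With all mice and the other scalings, Psmb10 lay between -0.01 and 0.02 in this comparison. No member separated the diets completely: 0 of 10 had groups without overlap in either comparison, where 18% of all genes had in the E171 mice and 9.96% in the mice without it.

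The difference between both diet effects was not shown for any member. The interaction, (WD_E171 minus ND_E171) minus (WD_CONT minus ND_CONT), was called for 0 of 10 members and 0% of all genes (limma), with 0 members and 1222 genes at an unadjusted p under 0.05. It was 0.40 for Psmb9 (95% interval -0.14 to 0.95), 0.36 for Nlrc5 (-0.17 to 0.89) and 0.30 for Tap1 (-0.20 to 0.80), each with an adjusted p of 0.999. The diet effects on Psmb9 and Tap1 with and without the additive are therefore not shown to differ. Averaged over both, the diet raised 4 of 10 members, where 65.6% of all genes passed (25% higher and 40.7% lower). They were Psmb9 at 0.31 (limma adjusted p = 0.0445), Tap1 at 0.29 (adjusted p = 0.0379), H2-D1 at 0.16 (adjusted p = 0.0251) and Tapbp at 0.11 (adjusted p = 0.0263). The second probe of Tapbp went the other way, at -0.14, and those of Psmb9 and Tap1 were at 0.16 and 0.15. None of these second probes passed when every probe was tested on its own. With both mice that stand apart left out, none of the 4 passed. Psmb10 was then called lower, at -0.19 (limma adjusted p = 0.00522, where 65.5% of genes passed). Psmb10 is among the genes with the brightest probes, whose median averaged difference was -0.21 under this scaling and -0.03 under the others described below. With all mice, Psmb10 was at -0.13 under this scaling and between -0.003 and 0.02 under the others. So a fall of Psmb10 cannot be given apart from the scaling.

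No member was called for E171 itself on either diet. On the Western diet (WD_E171 minus WD_CONT) 0 of 10 passed, where 0.381% of all genes did, and on the normal diet (ND_E171 minus ND_CONT) 0 of 10, where 0% did. In both, 0 members were at an unadjusted p under 0.05, beside 2821 genes on the Western and 958 on the normal diet (limma). The member differences ran from -0.06 to 0.25 on the Western diet, the widest being Psmb9 at 0.25 (95% interval -0.14 to 0.63, adjusted p = 0.654), Nlrc5 at 0.24 (-0.13 to 0.62, adjusted p = 0.654) and Tap2 at 0.14 (-0.02 to 0.30, adjusted p = 0.498). On the normal diet they ran from -0.16 to 0.03, with B2m, Tap1 and Psmb9 each at -0.16 (adjusted p = 0.999). In Tap2, 8 of 8 WD_E171 mice exceeded the WD_CONT median. The dim second Psmb9 probe was at 0.47 on the Western diet (limma adjusted p = 0.459 with every probe tested on its own). Averaged over the diets, 0 of 10 passed, where 0.368% of genes did, and the member differences ran from -0.09 to 0.08.

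How far the bright members moved with diet depended on the scaling of the arrays. The tenth of genes with the brightest probes, which holds H2-K1, H2-D1, B2m, Tapbp and Psmb10, had a median averaged diet difference of -0.21 when arrays were set to their 75th percentile, and of -0.03 under quantile normalization, under normexp background correction with quantile normalization, and in the authors' deposited value table. All genes stood at -0.11 under the 75th percentile. Under those 3 other scalings, 6 of 10 members were called higher in the E171 mice, where 53.7%, 52.2% and 48.2% of genes passed. The 4 added were H2-K1 (0.25 under each), H2-D1 (0.40 to 0.41), B2m (0.27 to 0.28) and Tapbp (0.23 to 0.26).

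Without E171, 4 of 10 members were called higher under those scalings, where 45.8%, 44.4% and 39.9% of genes passed. H2-K1 turned to 0.21 under quantile normalization, 0.20 with normexp and 0.19 in the deposited table, against -0.02 under the 75th percentile. B2m turned to 0.23, 0.23 and 0.24, against -0.02. H2-D1 was at 0.36, 0.35 and 0.36, and Tapbp at 0.23, 0.25 and 0.26. These calls were not rerun without WD_CONT replicate 6, which under the 75th percentile was the highest of its group for each of these genes. So a direction for H2-K1 and B2m without E171 cannot be given apart from the scaling. Psmb9 and Tap1 kept their side of the threshold in both comparisons under all 4 scalings, at 0.51 to 0.59 and 0.44 to 0.50 in the E171 mice.

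**Figure D2:**
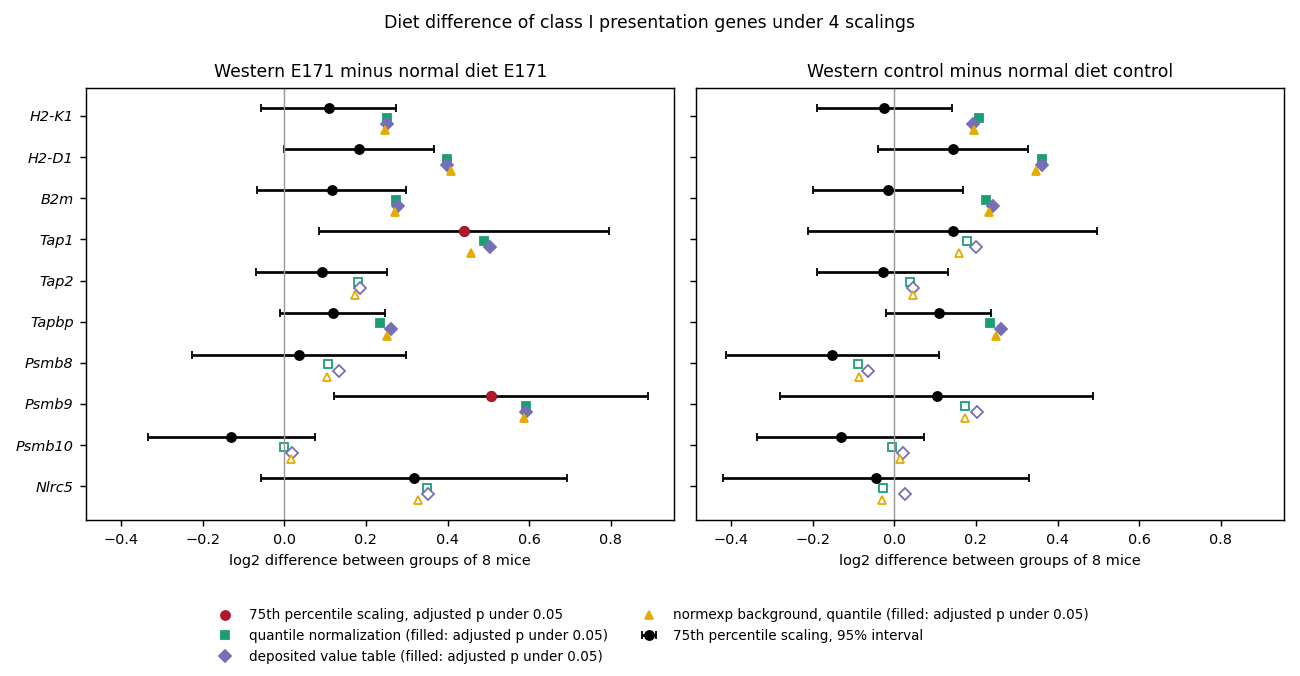
Log2 difference between diets for each class I gene, Western E171 minus normal diet E171 on the left and Western control minus normal diet control on the right, with 95% intervals under 75th percentile scaling (black; red where adjusted p is under 0.05) and 3 other scalings as coloured symbols (filled where adjusted p is under 0.05). H2-K1, H2-D1, B2m and Tapbp lie further right under the other scalings, H2-D1 at 0.40 under quantile normalization and 0.18 under the 75th percentile in the E171 mice.

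MHC class II, the presentation pathway for peptides taken up from outside the cell, is the nearest comparison. All 9 measured class II genes rose with the Western diet in both comparisons, with medians of 1.45 in the E171 mice and 1.22 without E171, under all 4 scalings and without either mouse that stands apart. Ciita, the class II activator and relative of Nlrc5, had medians of 1.48 in WD_E171 and 1.35 in WD_CONT, against 0.05 in ND_E171 and -0.08 in ND_CONT. The Ciita diet difference was 1.38 in the E171 mice (limma adjusted p = 3.67e-06) and 1.2 without (adjusted p = 3.31e-05), where Nlrc5 differed by 0.32 and -0.05 and did not pass. H2-Aa, a class II chain, rose by 1.6 (adjusted p = 3.2e-05) and 1.47 (adjusted p = 0.00012), and H2-Eb1, another, by 1.63 and 1.39. Kupffer cell markers moved the same way, with summed medians of 153 in WD_E171 and 163 in WD_CONT, against 88.6 in ND_E171 and 96.9 in ND_CONT. Monocyte and macrophage markers did too, at 124 and 128 on the Western diet, against 55.7 and 56.5 on the normal diet. The part of these cells in either class's difference was not tested.

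**Figure D3:**
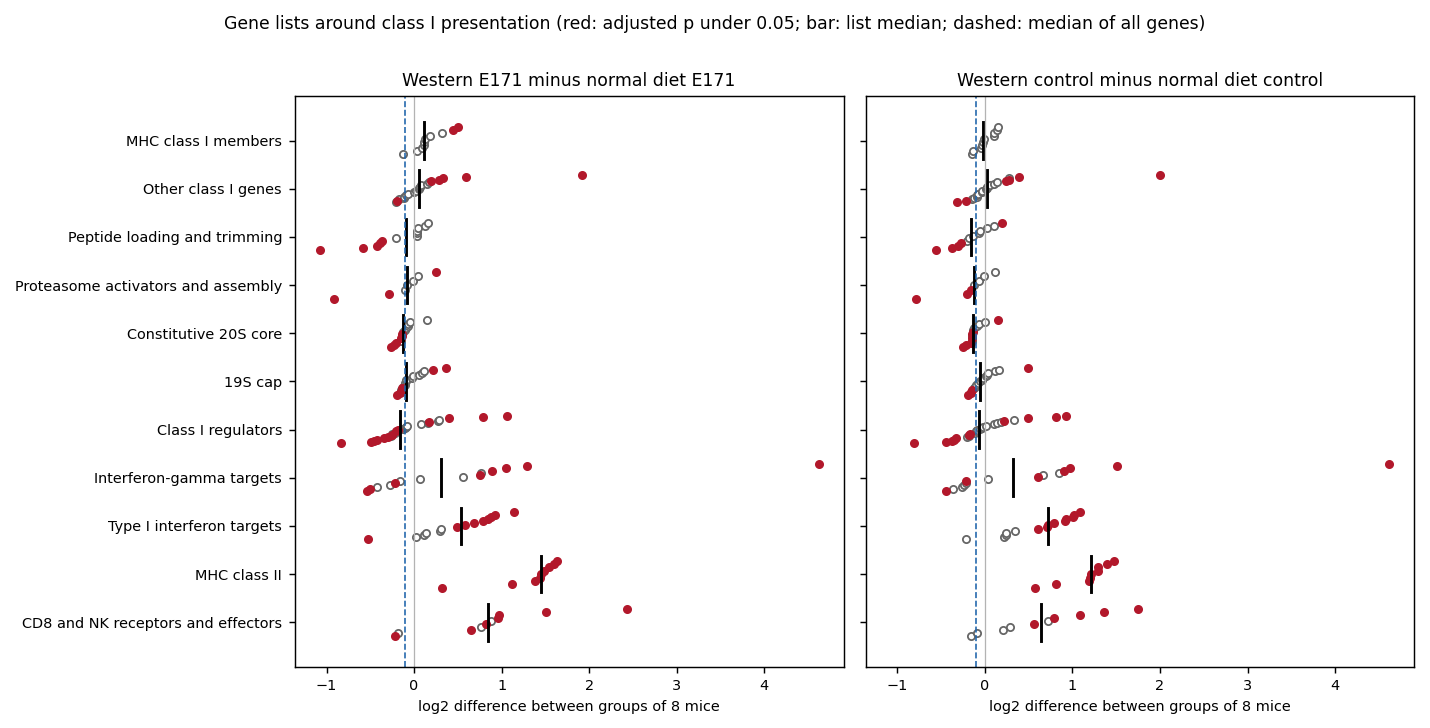
Log2 diet difference of every measured gene in 11 lists, Western E171 minus normal diet E171 on the left and Western control minus normal diet control on the right, with red points at adjusted p under 0.05, a bar at each list median and a dashed line at the median of all genes (-0.10). The class I members sit close to 0 while all 9 class II genes lie to the right.

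The list counts that follow stand beside the shares of all genes called, 53.2% with E171 (22.2% higher, 31% lower) and 47.3% without (18.5% higher, 28.8% lower). Of 20 other measured class I genes, 5 rose and 1 fell in the E171 mice, and 4 rose and 2 fell without E171. Under the other scalings 9 rose and 0 fell with E171, and 8 or 9 rose and at most 1 fell without. H2-Q1, a class I gene of the Q region, rose most, by 1.91 in the E171 mice (limma adjusted p = 2.45e-07) and 2.0 without (adjusted p = 1.63e-07). Its lowest, median and highest levels were 2.43, 2.73 and 3.52 in WD_E171, 2.36, 3.12 and 3.37 in WD_CONT, 0.71, 0.89 and 1.45 in ND_E171, and -0.30, 1.02 and 2.35 in ND_CONT. The diets did not overlap for H2-Q1 in either comparison, though the lowest WD_CONT mouse and the highest ND_CONT mouse nearly met, and its probe shared no 20-base run with a probe of another gene. H2-M3, which presents formylated peptides, rose by 0.60 and 0.39. H2-Q10, a secreted class I protein made by the liver, rose by 0.33 and 0.27, and Hfe, a class I relative in iron sensing, by 0.29 and 0.24. H2-Q4 was at -0.19 and -0.22 and called lower, but at 0.00 to 0.02 and not called under the other scalings. Mr1, which presents vitamin B metabolites, fell without E171 (-0.32, adjusted p = 0.0285) and did not pass in the deposited table (-0.24, adjusted p = 0.0996).

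Of 12 peptide loading and trimming genes, 0 rose and 5 fell in the E171 mice, and 1 rose and 4 fell without, 5 of 12 called in each and so no larger a share than over all genes. Under the other scalings 1 to 3 rose and 4 fell with E171, and 1 or 2 rose and at most 1 fell without. Hspa5 (BiP), a general chaperone of the endoplasmic reticulum, fell by 1.08 in the E171 mice (limma adjusted p = 0.000113) and by 0.56 without (adjusted p = 0.0323). Pdia3 (ERp57), a partner of tapasin, fell by 0.58 and 0.38, and the peptidase Tpp2 by 0.38 and 0.27 (not called without E171 in the deposited table, at -0.16 and adjusted p = 0.0606). Calr was called lower at -0.43 and -0.31, yet under the 3 other scalings it was at -0.21 to -0.22 and -0.11 to -0.12 and not called. Without E171, Hspa5 and Pdia3 also lost their call under those scalings, at -0.33 to -0.35 and -0.24 to -0.26. Npepps, a cytosolic trimming peptidase, rose without E171 by 0.19 (adjusted p = 0.00597). Lnpep, an endosomal trimming peptidase, was at 0.12 (adjusted p = 0.0882) and 0.11 (adjusted p = 0.154).

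The constitutive proteasome gave no direction apart from the scaling. Of the 14 genes of the 20S core, 0 rose and 6 fell in the E171 mice and 1 rose and 6 fell without E171, but under the other scalings 2 or 3 rose and 0 fell in the E171 mice, and 1 or 2 rose and 0 fell without. The core's median was -0.13 with E171 and -0.14 without under the 75th percentile, and 0.06 and 0.03 under quantile normalization. Psmb5, the subunit that Psmb8 replaces, was higher under every scaling, by 0.14 in the E171 mice (adjusted p = 0.0528) and 0.15 without (adjusted p = 0.0483) under the 75th percentile, and by 0.26 and 0.27 under quantile normalization (adjusted p = 0.000807 and 0.00078). Psmb6, which Psmb9 replaces, was at -0.12 and -0.13 under the 75th percentile and at 0.09 and 0.09 under quantile normalization, and Psmb7, which Psmb10 replaces, at -0.07 and -0.09, against 0.05 and 0.02; none of these passed. Psmb3 and Psma4, structural subunits, were called lower at -0.23 and -0.20 with E171 and -0.26 and -0.22 without, and were near 0 and not called under the other scalings. Among the 17 genes of the 19S cap, 2 rose and 4 fell in the E171 mice and 1 rose and 4 fell without, and 7 rose and 0 fell in each under quantile normalization. Psmd8 rose under every scaling, by 0.36 and 0.49 under the 75th percentile, while Psmd14, the cap's deubiquitinase, rose by 0.22 with E171 and was at 0.16 without (adjusted p = 0.083). Psmc1 and Psmd6 were called lower, at -0.16 and -0.19 with E171 and -0.19 and -0.15 without, and lost both calls under the other scalings, where Psmc1 turned to 0.05 and 0.02 (quantile). Of 7 activator and assembly genes, Psme3, a nuclear proteasome activator outside antigen processing, fell by 0.91 and 0.78 and was lower under every scaling. Psmg1, an assembly chaperone, fell by 0.29 and 0.20, without a call in the deposited table in the mice without E171, and the inhibitor Psmf1 rose by 0.25 with E171 and was at 0.12 without (adjusted p = 0.188).

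Of 24 regulators of the pathway, 4 rose and 9 fell in the E171 mice, and 4 rose and 7 fell without E171. These 13 of 24 and 11 of 24 are close to the 53.2% and 47.3% of all genes called. The receptor chains for interferon-gamma rose: Ifngr2 by 0.78 and 0.82, and Ifngr1 by 0.39 and 0.49. Irf8, a factor of myeloid cells, rose by 1.06 and 0.93. Rfxank, a subunit of the RFX complex that binds the X box of class I and II promoters, fell by 0.83 and 0.81, and Nfya and Nfyb, subunits of the factor that binds CCAAT, fell by 0.30 and 0.49 in the E171 mice and by 0.33 and 0.37 without. Stat2 fell by 0.45 and 0.44. These genes kept direction and call under all 4 scalings. Irf1, a factor induced by interferon-gamma, was at 0.07 (adjusted p = 0.755) and 0.14 (adjusted p = 0.564). Ifng itself was well above background in only 5 of 8 WD_E171, 5 of 8 WD_CONT, 8 of 8 ND_E171 and 5 of 8 ND_CONT mice, and did not pass (-0.27 with E171 and -0.04 without, of either sign under the other scalings).

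Of 14 measured interferon-gamma targets, 5 rose and 3 fell in the E171 mice, and 5 rose and 2 fell without E171. These 8 of 14 and 7 of 14 are near the 53.2% and 47.3% of all genes called. Ubd, a ubiquitin-like modifier, rose by 4.62 and 4.61 and the chemokine Cxcl10 by 1.29 and 1.51, while the guanylate-binding protein Gbp5 fell by 0.54 and 0.44. Iigp1, an interferon-inducible GTPase, was at -0.50 with E171 (adjusted p = 0.0162) and -0.36 without (adjusted p = 0.0877). Under the other scalings 5 rose and 1, Gbp5, fell in each comparison. Without WD_CONT replicate 6, 3 rose and 5 fell in the mice without E171. Of 14 type I interferon targets, 8 rose and 1 fell in the E171 mice and 9 rose and 0 fell without, led by Oasl2 at 1.14 and 1.0 and Mx1 at 0.88 and 1.08. Mx2 was the 1 that fell, at -0.52 with E171 (adjusted p = 0.0469), a call lost in the deposited table and with normexp.

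Among 10 genes of the cells that read class I, 6 were called higher and 1 lower in the E171 mice, and 5 higher and 0 lower without E171. Among the 8 that were well above background on at least 6 of 8 arrays of both groups, 5 rose and 1 fell with E171 and 3 rose and 0 fell without. Klrd1, a chain of natural killer receptors for non-classical class I, rose by 1.5 and 1.36, and the activating receptor Klrk1 by 0.82 and 0.56. Cd8a, the class I co-receptor of cytotoxic T cells, was not among those 8 and is given no difference: it was well above background in 5 of 8 WD_E171 and 6 of 8 WD_CONT mice, against 1 of 8 ND_E171 and 1 of 8 ND_CONT mice. Prf1, the pore-forming perforin, was the 1 that fell with E171, by 0.22 (adjusted p = 0.0135), and was at -0.10 without. The summed T and NK cell markers had medians of 36.5 in WD_E171 and 39.0 in WD_CONT, against 59.4 in ND_E171 and 62.6 in ND_CONT. That sum covers 7 of 10 listed markers and weighs bright probes most: gene by gene, 2 were called higher and 2 lower with E171 (median difference 0.55), and 1 higher and 2 lower without (median 0.11), with Cd8a among the higher in both.

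The members varied together from mouse to mouse within groups. Over the 32 mice, as deviations from the group mean, Pearson's r with Nlrc5 ran from 0.62 for H2-D1 to 0.78 for H2-K1, and all 9 comparisons passed (permutation within groups, 100000 resamples, adjusted p from 6e-05 to 0.00057; the smallest raw p possible is 1e-05). H2-K1 had r = 0.78 and Spearman's rho = 0.72, Tap1 0.77 and 0.65, Tap2 0.77 and 0.61, and Psmb9 0.74 and 0.57. Without the 2 mice farthest from the median of Nlrc5, which were the 2 that stand apart, r was 0.64 for H2-K1, 0.62 for Tap1, 0.64 for Tap2, 0.54 for Psmb9 and 0.50 for H2-D1. With groups re-centred on those 30 mice, r was 0.48 to 0.62 and all 9 passed again (adjusted p from 0.00324 to 0.0151). With slide removed as well as group, r was 0.69 to 0.83 over the 32 mice.

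Within single groups the values spread. For Psmb9, r was 0.76 in WD_E171, 0.70 in WD_CONT, 0.96 in ND_E171 and 0.51 in ND_CONT. For H2-K1 it was 0.07 in WD_E171, 0.93 in WD_CONT, 0.75 in ND_E171 and 0.91 in ND_CONT, though under quantile normalization the WD_E171 value was 0.70. For B2m it was 0.27 in WD_E171, 0.90 in WD_CONT, 0.42 in ND_E171 and 0.79 in ND_CONT. Array-wide differences in signal enter every member's deviation alike, and their part in these correlations was not tested. Across the 45 pairs of members, given as a description, Tap1 and Psmb9 were closest (r = 0.92), then Psmb8 and Psmb9 (r = 0.91), while B2m and Psmb8 were the least alike (r = 0.25).

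**Figure D4:**
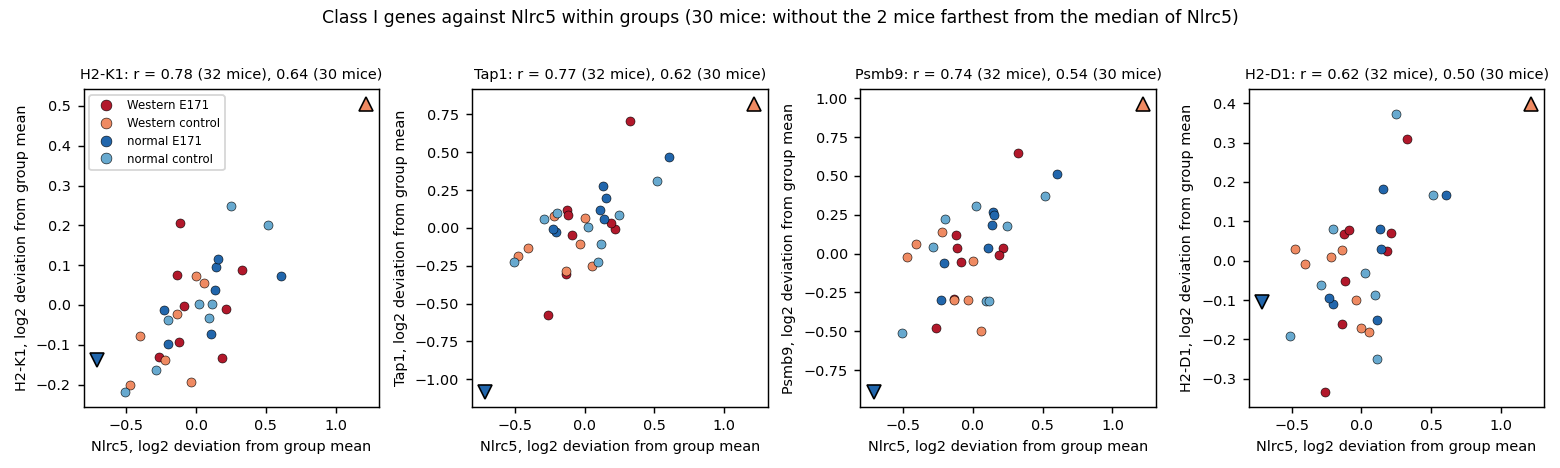
Deviation of class I genes from their group mean (vertical axis) against that of Nlrc5 (horizontal axis), both in log2 units, a point per mouse coloured by group. The points rise together, with r = 0.78 for H2-K1 over 32 mice and r = 0.64 over the 30 mice left without the 2 farthest.

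Outside the members, the genes most like their mean deviation over the 32 mice included Gbp3 (r = 0.91), Ifi47 (0.89), AW112010 (0.89) and H2-T22 (0.88), out of 23607 genes with a median r of -0.01. Gbp3 and Ifi47 are interferon-induced GTPases and H2-T22 is a non-classical class I gene. Ciita had r = 0.66, Ifng 0.62, Cd74 0.56, H2-Aa 0.41 and Irf1 0.32. The constitutive subunits Psmb5, Psmb6 and Psmb7 had r = -0.28, -0.03 and -0.13, and Alb, the hepatocyte product, -0.01. These values come from the same arrays and are descriptions. Likeness between mice did not go with a shared diet difference: Gbp3 rose by 0.75 in the E171 mice (limma adjusted p = 0.00565) and 0.61 without (adjusted p = 0.0258; 0.45 and adjusted p = 0.0716 without WD_CONT replicate 6), whereas Ifi47 was at -0.38 and -0.41 and did not pass, nor did H2-T22. AW112010 was at 0.33 with E171 (adjusted p = 0.0924), passing under the other scalings, and at 0.17 without (adjusted p = 0.428).

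**Figure D5:**
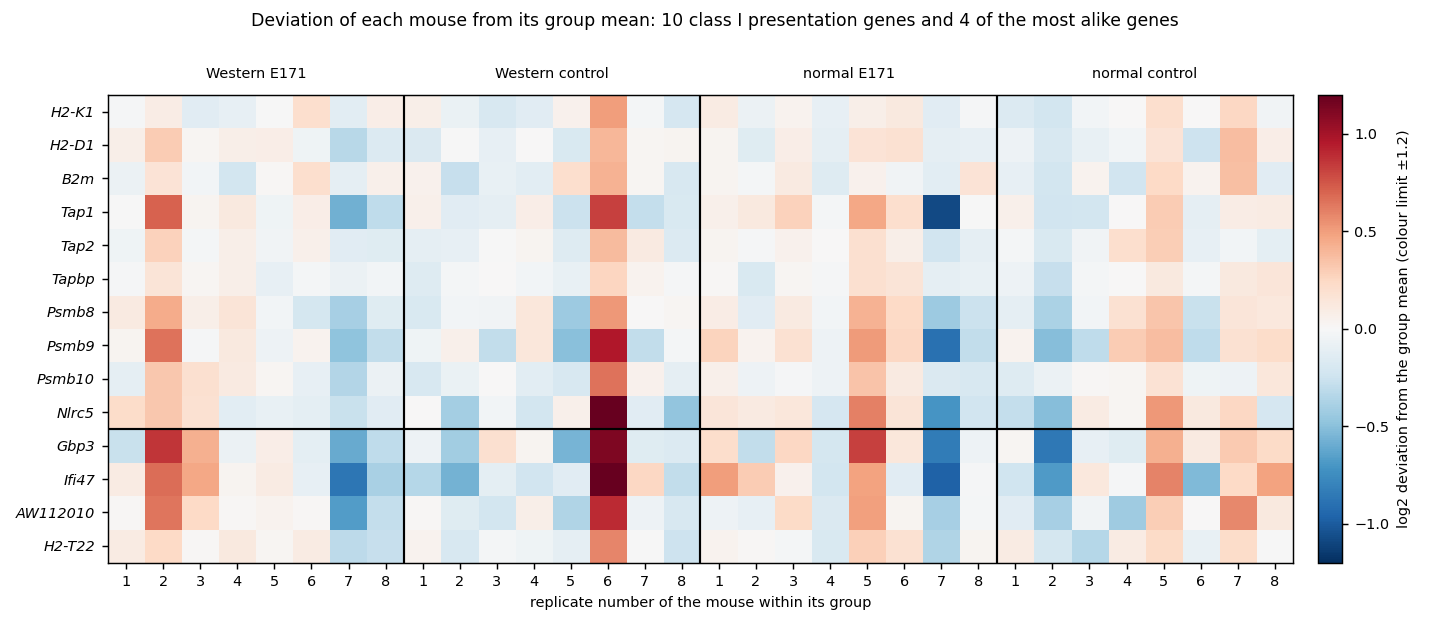
Deviation of every mouse from its group mean, in log2 units (red above, blue below, colour limit 1.2), for the 10 class I genes and 4 of the genes most like them, with mice in columns by group and replicate number. Whole columns share a colour: Western control mouse 6 and Western E171 mouse 2 are red, normal diet E171 mouse 7 and Western E171 mouse 7 blue.

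The mice that stand apart differed in what moved with their class I genes. In WD_CONT replicate 6, the median deviation was 0.51 for the members, 1.26 for interferon-gamma targets (14 of 14 above the group mean) and 0.77 for the receptors and effectors that read class I (10 of 10 above), against 0.18 for type I interferon targets, 0.28 for class II and 0.02 for all genes. Cxcl9, a chemokine induced by interferon-gamma, stood at 3.12 in that mouse, where the WD_CONT median was 1.29. Its lipid-associated macrophage genes lay below the group mean in 5 of 5 cases (median -1.01). So did its cholangiocyte markers in 4 of 4 (median -1.07) and its B cell markers in 4 of 4 (-0.67). Stellate cell markers did in 6 of 6 (-0.36) and sinusoidal endothelial markers in 6 of 6 (-0.21). Its summed T and NK cell markers were 43.4, where the group ran from 31.2 to 72.7 with a median of 39.0, and 6 of 7 of those markers lay above the group mean. In ND_E171 replicate 7, the median deviation was -0.20 for the members, -0.68 for interferon-gamma targets (12 of 14 below), -0.60 for type I interferon targets (14 of 14 below) and -0.37 for class II (8 of 9 below), against -0.02 for all genes. Its Kupffer cell markers summed to 69.8 and its leukocyte markers to 11.5, each the lowest of its group, and all 7 of its T and NK cell markers lay below the group mean (median -0.44). Its lipid-associated macrophage markers, at 26.8, and cholangiocyte markers, at 1.7, were the highest of the group. The part of these cells in the class I levels was not tested. Less extreme columns of the same kind were WD_E171 replicate 2, highest for 8 members, and ND_E171 replicate 5, highest for 7. So were ND_CONT replicate 2, lowest for 7, and WD_E171 replicate 7, lowest for 6.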

How the data were processed

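Liver RNA of 32 mice was measured on single-colour Cy3 Agilent arrays. Per the file headers, the deposited scanner files hold for each spot a processed signal intensity, already corrected for background, and flags that mark spots as well above background, saturated or outlying; these flags are the authors' scanner software's own 0 or 1 codes. Per the submitters' processing notes, the software was Agilent Feature Extraction 10.10.1.1, and limma was used. Beside them the authors deposited a table on the log2 scale for 36695 probes; its correlation with the scanner values was at least 0.989 on each array. How that table was scaled is not given in the sources used here.

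From the 59305 non-control spots, outlier spots were left out and spots of a probe averaged, giving 56605 probes. Each array's log2 intensity was set relative to its 75th percentile. A probe was kept if it was well above background on at least 6 of 8 arrays of at least 1 group. Genes were named by accession through RefSeq (32994 probes), by symbol (10224), by synonym (520) or as in the file (2574), and 10293 probes stayed unnamed. The probe with the highest mean stood for its gene. One linear model over the 4 groups was fitted in limma 3.58.1 (R 4.3.3) to 23644 genes, with Benjamini-Hochberg adjustment over all of them, a threshold of 0.05 and 95% intervals. The fit was tested on simulated data. Co-variation was tested in Python 3.11.15 (numpy 2.4.6, scipy 1.17.1, pandas 2.3.3; plots in matplotlib 3.10.9) with 100000 permutations of mice within groups. The signal of the array and the number of mice limit the precision.

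The members and lists were chosen with earlier results of these data known. Genes outside the members were named by rule: Psmb5, Psmb6, Psmb7, Ifng and Irf1; from each list, the 2 highest and 2 lowest that passed for the averaged diet; and the 5 genes most like the members' mean deviation over 32 mice; one gene that the rule names is not reported here. Outside that rule, H2-Q10, Hfe, Calr, Tpp2, Ifngr1, Nfya, Nfyb, Klrk1, Ciita, Cd74, Cxcl9 and Alb were named after their values were seen. Alternatives were other scalings, background correction, the deposited table, other filters, the mean of a gene's probes, slide and replicate number as blocks, array weights and, chosen after the data had been seen, leaving out single mice.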

Additional observations from a re-analysis of the deposited data

Results flagged for a closer look

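Each of the 10 members was examined in each of the 4 groups of 8 mice for a mouse whose gap to its nearest neighbour was large for the group's range (Dixon's test). Of the 40 groups examined 7 stood out, where chance gives about 1 in 20. Of these, 6 were the same mouse, WD_CONT replicate 6, as the highest of its group. It had 9.22 for H2-K1, where the next mouse had 8.79, and 7.18 for H2-D1, where the next had 6.81. It had 2.81 for Tap1 (next 2.06), 4.35 for Psmb9 (next 3.52), 5.52 for Psmb10 (next 4.93) and 2.63 for Nlrc5 (next 1.48). These 6 values come from 1 liver and are not independent. The other was ND_E171 replicate 7, the lowest of its group for Tap1 at 0.60, where the next mouse had 1.66. All are log2 levels relative to the array's 75th percentile. The cause was not tested.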

How the results depend on the processing

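The scaling of the arrays and 2 single mice decided how many class I genes were called. In WD_E171 minus ND_E171, 2 of 10 members were called, and 6 under quantile normalization, normexp with quantile normalization and the deposited table. There, 1 was called with no filter on dim probes, 0 with the mean of a gene's probes and 1 with only the compared groups in the fit. With single mice left out the count ran from 0 (without ND_E171 replicate 7) to 2, and it was 1 without both mice that stand apart. In WD_CONT minus ND_CONT, 0 were called, 4 under each of those 3 scalings, and between 0 and 1 with mice left out, the 1 being Psmb10, lower, without WD_CONT replicate 6 or without both. H2-K1 changed sign there, to 0.21, 0.20 and 0.19 (quantile, normexp, deposited), as did B2m, to 0.23, 0.23 and 0.24. For the averaged diet, 4 were called, 6 under each of the 3 scalings, 2 with no dim filter, 1 with the mean of probes (where Tapbp turned to -0.0151), and with mice left out 2 higher without ND_E171 replicate 7, 2 higher and 1 lower (3 in all) without WD_CONT replicate 6, and 0 higher and 1 lower (Psmb10) without both. With all mice, the averaged Psmb10 difference was -0.13, and it lay between -0.003 and 0.02 under those 3 scalings. The E171 comparisons and the interaction gave 0 members under every alternative run, and all 9 correlations with Nlrc5 passed under every alternative run. Replicate numbers did not meet the criterion for pairing, that every pair's correlation be over 0.1: over 48 same-numbered pairs the correlation of deviations ran from -0.30 to 0.57, 23 were over 0.1, and in 14 the same-numbered mouse was the best match (median 0.07). Of these 14, 6 were the 6 pairs of replicate 6, at 0.20 to 0.42. Only some of those pairs include the outlying WD_CONT mouse, and those without it were at 0.22 to 0.27. With the replicate number as a block, 2 members were called in WD_E171 minus ND_E171 (55.2% of genes), 0 in WD_CONT minus ND_CONT (49.3%) and 4 for the averaged diet (67.3%). For all genes, the split of calls in WD_E171 minus ND_E171 was 5239 higher and 7336 lower, and 5960 and 5706 in the deposited table; in WD_CONT minus ND_CONT it was 4385 and 6798, and 5261 and 4407. Over single members, of 950 values under alternatives 841 kept direction and side of the threshold, 30 gained a call, 19 lost one, 7 changed sign with a call in at least 1 of the settings compared and 53 changed sign without a call in either. Dim probes limit Ifng, Cd8a and the second Psmb9 probe.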
